A study of Mus musculus with 3 samples.

Results

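The genes of transforming growth factor beta (TGF-beta), bone morphogenetic protein (BMP) and growth differentiation factor (GDF) signalling were described in the stromal cells of mouse subcutaneous fat. They are a list of 39 genes of the 32285 in the count files, made up of 14 ligands, 4 latency proteins and proteases, 6 antagonists, 9 receptors and 6 SMADs and target genes. The cells were sorted without CD31, a marker of endothelial cells, and without CD45, a marker of leukocytes. They came from the collagenase-digested stromal vascular fraction of the inguinal depot of 3 male wild-type C57BL/6J mice, 8 weeks old and untreated as far as the labels say. Each mouse gave 1 single-cell 3′ library, and there was 1 condition, so populations of cells were compared within the mice and no groups of mice were compared.

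Members of this superfamily are secreted dimers that bind pairs of type I and type II serine/threonine kinase receptors, which phosphorylate SMAD proteins. TGF-beta is stored in the matrix in a latent form held by latent TGF-beta binding proteins, and secreted antagonists such as follistatin, noggin and the chordin-like proteins keep activins and BMPs from their receptors. In fat tissue TGF-beta is known to hold back adipocyte differentiation, whereas BMP4 is known to favour commitment of precursor cells to the adipocyte lineage. The Id genes and the inhibitory SMADs Smad6 and Smad7 are classical transcriptional targets of these pathways.

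Cells entered when they had over 500 detected genes and under 5% of their unique molecular identifiers (UMIs) from mitochondrial genes, which left 34577 cells. Populations were gated on raw UMIs of genes outside the list. The progenitor gate took cells with 3 or more UMIs of Dpp4 and Pi16 together and at most 1 of Icam1 and Fabp4. The preadipocyte gate took cells with 4 or more UMIs of Icam1 and Fabp4 and at most 1 of Dpp4. The regulatory gate took cells with at least 1 UMI each of Clec11a and Fmo2 and at most 1 each of Fabp4 and Dpp4, after the adipocyte regulatory cells of the study. They held 19841, 5561 and 1058 cells, with 7399, 3169 and 9273 progenitor, 2278, 1394 and 1889 preadipocyte and 270, 384 and 404 regulatory cells in mice 1, 2 and 3. A further 7853 cells met no gate and 264 met more than 1 gate and were left out. UMIs were summed per mouse and gate, levels are given on the counts-per-million scale (CPM) of that sum, and differences as log2 fold changes with their standard error (SE).

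The libraries held between 79801002 and 100846072 UMIs in between 6872 and 16220 barcodes, and the median UMIs per cell of mice 1, 2 and 3 were 7329, 12052 and 6690 in the progenitor gate, 8083, 12977 and 7296 in the preadipocyte gate and 4945, 10104.5 and 4575 in the regulatory gate. General stromal markers summed to 20207 to 39244 CPM and immune markers to 3.86 to 23.9 CPM over the gates. Between 52 and 81 barcodes were shared by any pair of libraries. Marker lists that exclude the gate genes had their highest summed level in the gate of their name: progenitor markers at 2718 to 3755 CPM in the progenitor gate and at most 319.4 CPM in the other 2 gates, preadipocyte markers at 4351 to 5194 CPM in the preadipocyte gate and at most 1854 CPM in the others, and regulatory markers at 1725 to 2205 CPM in the regulatory gate and at most 793.8 CPM in the others. Endothelial markers summed to 36.3, 64.8 and 4.86 CPM in the preadipocyte gate of mice 1, 2 and 3, with 1 of the 8 markers at 0 in mouse 3. Fabp4, a gene of that gate, is also known from capillary endothelium. They summed to 2.79 to 8.65 CPM in the progenitor gate and 4.33 to 5.68 CPM in the regulatory gate, where 3 to 5 of the 8 were at 0. Mural markers, 7 genes, summed to 68 to 95.3 CPM in the preadipocyte, 23.3 to 33.4 in the progenitor and 54.1 to 105.9 CPM in the regulatory gate. Genes induced by tissue dissociation summed to 14670 to 18805 CPM in the progenitor gate, 23090 to 28375 CPM in the preadipocyte gate and 24011 to 26488 CPM in the regulatory gate. The part of these differences in the results was not tested. Some values are also given without cells that carried a UMI of another cell type's marker. Those were endothelial, mural, immune, mesothelial, Schwann cell or cycling markers, apart from Des, Cd68, Lyz2 and Krt19. Such values do not tell these cell types apart and do not bear on the dissociation genes, and deeper cells are more easily left out.

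Of the 39 genes, which were chosen with earlier results of these data known, 37 were measured well enough for testing in the gates. Only Ltbp2 and Grem1 fell under the count filter. Between the preadipocyte and the progenitor gate 33 of 37 members changed (edgeR's quasi-likelihood test with the mouse as a block, adjusted p under 0.05 over 13258 genes). Of these, 11 were higher in the preadipocyte gate, against 27.2% of all genes tested, and 22 were lower, against 29.2% of all genes. At least a 2-fold change was called for 21 members, 6 up and 15 down, where 19.7% of all genes reached it. Both counts include Bmp3, Bmp6, Bmp7, Inhba and Inhbb as lower and Bmp5 and Nog as higher. These genes were near the floor in the gate where they were lower. They could pass the count filter through gates where they were higher, so the counts are partly set by the filter. The median log2 difference of the members was -0.84, and that of all genes was 0.00.

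Between the regulatory and the progenitor gate 22 of 37 members changed. There were 8 higher in the regulatory gate, with 19% of all genes as background, and 14 lower, with 24% of all genes as background. Of the 17 that moved at least 2-fold, where 16.9% of all genes did, 7 rose and 10 fell, and the members' median log2 difference was -0.11 against -0.05 for all genes. Between the regulatory and the preadipocyte gate 21 members changed, 16 higher in the regulatory gate (12.3% of all genes) and 5 lower (13.4% of all genes). In that comparison 12 members moved at least 2-fold, 11 of them up, where 9.85% of all genes did, with a median log2 difference of 0.26 against -0.04 for all genes. These comparisons share their sums pairwise, so their counts are not independent of each other. Members near the floor, among them Bmp3 and Nog, are counted here as well.

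**Figure D1:**
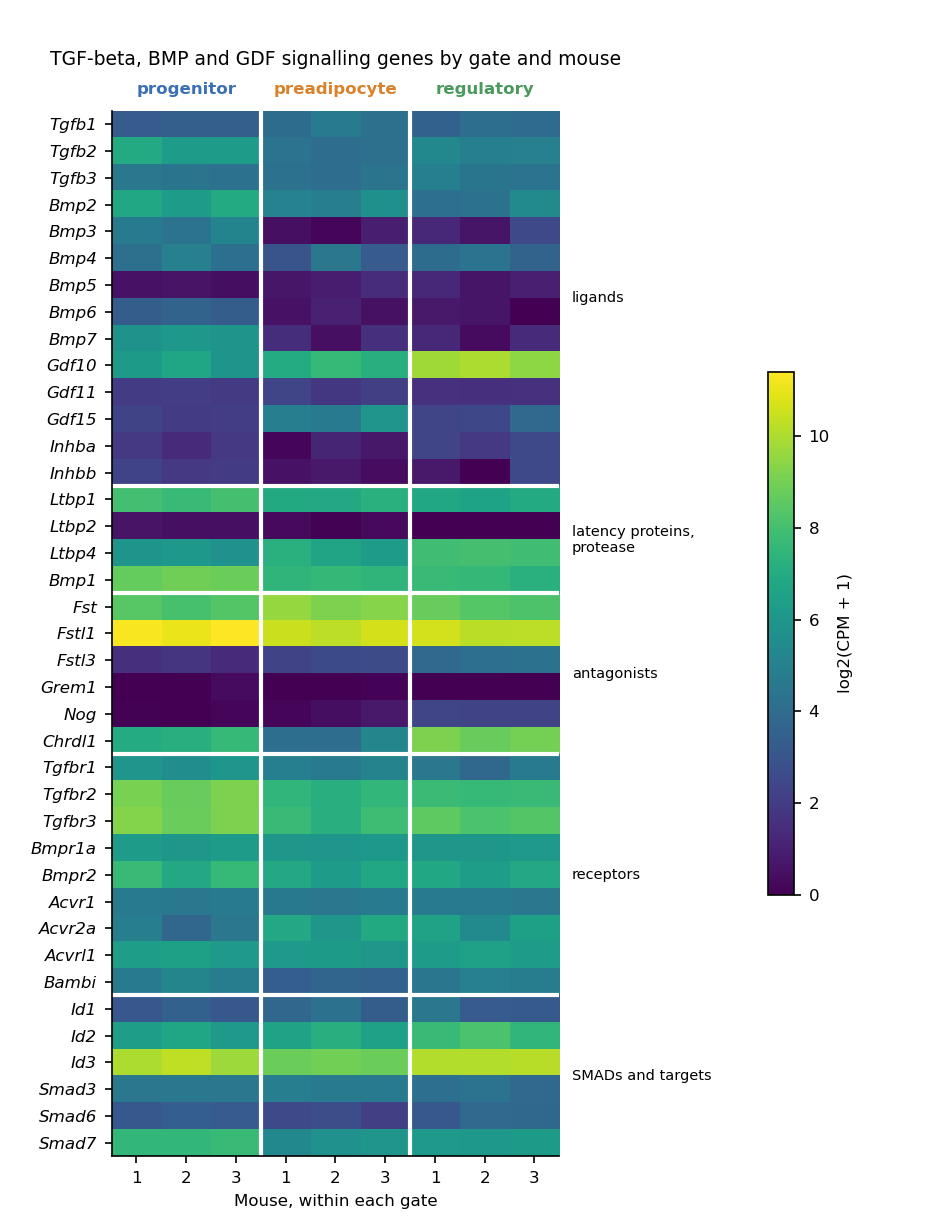
Level of the 39 genes, as log2(CPM + 1), in each gate (blocks of columns) and mouse (columns 1 to 3), with the genes in rows by role. Bmp3, Bmp6 and Bmp7 stand out in the progenitor columns and Gdf10, Chrdl1 and Ltbp4 in the regulatory columns, in each of the 3 mice.

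Promoter windows are shown for 4 members that stand for the patterns described further on, chosen with their levels known: Gdf10 and Id2 were highest in the regulatory gate, Id3 was low in the preadipocyte gate and Tgfb2 was highest in the progenitor gate. Each is the 250 bases before the transcript start, 5′ to 3′ on the gene's strand (RefSeq, GRCm38.p6). Windows were found for 26 of the 39 members, and the others were Tgfb3, Bmp1, Bmp2, Bmp3, Bmp7, Fst, Nog, Chrdl1, Tgfbr3, Acvrl1, Bambi, Id1 and Smad7. Capitals mark, on either strand and with overlaps allowed, GGCGCC, which SMADs of the BMP branch are known to bind, CAGACA, which holds the short SMAD-binding element, GTCTAGAC, which is the palindrome bound by SMADs in vitro, GGGCGG, which is the GC box, and TATAAA, which is the TATA box.
Gdf10, chr14:33923337-33923586, plus strand: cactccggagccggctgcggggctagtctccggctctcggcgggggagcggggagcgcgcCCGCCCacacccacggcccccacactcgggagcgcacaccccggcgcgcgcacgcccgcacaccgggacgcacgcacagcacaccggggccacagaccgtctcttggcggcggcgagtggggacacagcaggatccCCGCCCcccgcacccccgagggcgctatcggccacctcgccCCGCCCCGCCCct
Id2, chr12:25096093-25096342, minus strand: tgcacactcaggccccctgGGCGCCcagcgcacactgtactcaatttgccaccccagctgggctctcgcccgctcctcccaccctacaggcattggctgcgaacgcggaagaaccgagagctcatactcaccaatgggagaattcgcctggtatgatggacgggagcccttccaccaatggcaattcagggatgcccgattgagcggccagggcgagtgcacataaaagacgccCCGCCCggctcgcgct
Id3, chr4:136143572-136143821, plus strand: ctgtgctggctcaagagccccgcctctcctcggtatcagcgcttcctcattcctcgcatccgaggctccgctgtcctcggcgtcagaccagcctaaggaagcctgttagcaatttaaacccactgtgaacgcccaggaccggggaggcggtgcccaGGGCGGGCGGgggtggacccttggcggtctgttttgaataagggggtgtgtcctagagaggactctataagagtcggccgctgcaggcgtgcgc
Tgfb2, chr1:186705990-186706239, minus strand: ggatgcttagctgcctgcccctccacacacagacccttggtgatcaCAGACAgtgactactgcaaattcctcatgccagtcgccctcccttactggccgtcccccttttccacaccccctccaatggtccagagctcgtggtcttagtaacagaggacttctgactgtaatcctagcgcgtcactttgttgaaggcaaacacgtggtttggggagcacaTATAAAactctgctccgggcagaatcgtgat
The Id2 window held 1 GGCGCC, 231 bases before the start, and 1 GC box. The Tgfb2 window held 1 CAGACA, 204 bases before the start, and a TATAAA 31 bases before it. The Gdf10 and Id3 windows held 4 and 2 GC boxes and none of the other marked sequences. The short SMAD-binding element was not searched for on its own, so its absence from these windows does not follow. Over the 26 members, GGCGCC was in a window of 6, CAGACA of 5, GTCTAGAC of 0, GGGCGG of 20 and TATAAA of 4. Some members had more than 1 window. Counted by window, as in the background that follows, 7 of 31 held GGCGCC, 5 CAGACA, 0 GTCTAGAC, 22 GGGCGG and 4 TATAAA. Of 32851 promoter windows of the same length, 9.59% held GGCGCC, 17.1% CAGACA, 0.167% GTCTAGAC, 32.7% GGGCGG and 12.4% TATAAA. A match of letters is a description of the window and not a binding site.

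Among the ligands, 12 of 14 changed between the preadipocyte and the progenitor gate, 8 of them lower in preadipocytes, and 7 of 14 changed between the regulatory and the progenitor gate. Of all genes tested, 56.3% and 43.0% were called in these comparisons, so the second count was near the background. The 12 include Bmp3, Bmp5, Bmp6, Bmp7, Inhba and Inhbb, which could pass the count filter through gates where they were higher. Summed over the ligands, the level was 434.6 ± 24.9 CPM (SD, n = 3 mice) in the progenitor gate, 307.7 ± 44 CPM in the preadipocyte gate and 999.0 ± 130.8 CPM in the regulatory gate. Gdf10 held between 82.6% and 89.7% of the ligand UMIs of the regulatory gate. Without the most abundant ligand of each sum, the levels were 316.8 ± 22.9, 151.0 ± 30.5 and 131.0 ± 17.2 CPM, so the order of the progenitor and regulatory gates turned. That ligand was Gdf10 in every preadipocyte and regulatory sum, but Tgfb2, Gdf10 and Bmp2 in the progenitors of mice 1, 2 and 3. The ligands left in the sums therefore differed.

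Several BMPs were largely restricted to the progenitor gate. Bmp7 (ENSMUSG00000008999, chromosome 2, 172868012 to 172940321), which encodes a BMP known for its part in brown fat development, was at 57.5, 66.2 and 59.2 CPM in the progenitors of mice 1, 2 and 3. It was at 1.85, 0.383 and 1.92 CPM in the preadipocyte gate and at 1.4, 0.27 and 1.55 CPM in the regulatory gate. The lowest progenitor sum therefore lay far above every sum of the other gates. The log2 fold change was -5.56 (SE 0.22) for preadipocytes and -6.16 (SE 0.44) for regulatory cells. Only 2, 1 and 3 UMIs of Bmp7 lay behind the regulatory sums, and over the 3 mice the ratio of progenitor to regulatory CPM was 71 (95% exact interval 32.6 to 193.5, counting error only). Of all Bmp7 UMIs in kept cells, 91.2%, 92.5% and 89.6% were in progenitors of mice 1, 2 and 3. With each cell thinned to 3000 UMIs, 15.3% to 18.5% of progenitors had a Bmp7 UMI, and 0.147% to 0.768% of preadipocytes and 0% to 0.478% of regulatory cells did (at full depth 29.8% to 47.9%, 0.43% to 1.38% and 0.26% to 0.743%). Cells under 3000 UMIs were left out of this and all later thinned shares. They were 1436 of 19841 progenitors, 161 of 5561 preadipocytes and 212 of 1058 regulatory cells. Of the 84 cells with 5 or more UMIs of endothelial markers, 34 could be thinned, and 1 of these (2.94%) had a Bmp7 UMI. These cells also held progenitor markers, at 693.1 to 1836 CPM, and stromal markers, at 8666 to 12989 CPM, so they are not a clean reference for free RNA, and no background level was set from them.

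Bmp3, which encodes an atypical BMP that opposes other BMPs, followed the same pattern. It was at 25.6, 19.2 and 34.6 CPM in the progenitor gate, at 0.38, 0.109 and 0.958 CPM in the preadipocyte gate and at 1.4, 0.541 and 4.65 CPM in the regulatory gate. The gates did not overlap for progenitors against the others, and mouse 3 was the highest in each gate. Bmp3 fell by 5.93 on the log2 scale in preadipocytes (SE 0.25) and by 3.75 in regulatory cells (SE 0.33), over 22 preadipocyte and 13 regulatory UMIs in all. The rise of Bmp3 from preadipocytes to regulatory cells (log2 fold change 2.18, SE 0.65) rests on those few UMIs. It was 0.69, and no longer called, once cells with a UMI of another cell type's marker were left out. Bmp6, a BMP known as a regulator of iron balance, was at 9.24, 11.4 and 9.15 CPM in progenitors, 0.489, 1.04 and 0.442 CPM in preadipocytes and 0.702, 0.541 and 0 CPM in regulatory cells. Its log2 fold changes were -3.95 and -4.63, over 34 preadipocyte and 3 regulatory UMIs in all. The progenitor-to-regulatory ratio was 22.9 (95% exact interval 7.83 to 111.3, counting error only). No p-value is given for Bmp3, Bmp6 and Bmp7, which were near the floor outside the progenitor gate. They could pass the count filter through that gate alone.

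Tgfb2 and Bmp2 were highest in progenitors, and Tgfb2 also divided the other gates. Tgfb2 (ENSMUSG00000039239, chromosome 1, 186622792 to 186705989), one of the TGF-beta isoforms, was at 124, 75.7 and 74.7 CPM in progenitors, 19.6, 15.9 and 17.2 CPM in preadipocytes and 38.6, 29.8 and 30.5 CPM in regulatory cells. None of these ranges overlapped, with progenitors highest and preadipocytes lowest. The log2 fold change against progenitors was -2.41 (SE 0.09, adjusted p = 5.83e-10) in preadipocytes and -1.44 (SE 0.12, adjusted p = 1.30e-06) in regulatory cells, and regulatory cells exceeded preadipocytes by 0.97 (SE 0.14, adjusted p = 2.95e-04). Bmp2, which encodes an osteogenic BMP, was at 111, 74.4 and 125 CPM in progenitors against 32.5, 28.4 and 52.5 CPM in preadipocytes and 16.8, 18.9 and 41.3 CPM in regulatory cells. Progenitors of every mouse lay above both other gates. Against progenitors, the log2 fold change was -1.52 (SE 0.10, adjusted p = 9.69e-08) in preadipocytes and -2.00 (SE 0.15, adjusted p = 5.98e-07) in regulatory cells, whereas regulatory cells and preadipocytes differed by -0.48 (SE 0.17, adjusted p = 0.0563).

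Tgfb1, the best known TGF-beta isoform, ran the other way at a low level. It was at 9.11, 10.1 and 9.88 CPM in progenitors, 15.5, 24.8 and 17.6 CPM in preadipocytes and 10.5, 16.2 and 15 CPM in regulatory cells. The preadipocyte value of mouse 2 was the highest. Endothelial markers in this gate were at 36.3, 64.8 and 4.86 CPM in mice 1, 2 and 3. Their part in the Tgfb1 levels was not tested. In cells with 5 or more UMIs of endothelial markers Tgfb1 was at 106, 178 and 45.9 CPM. These were only 39, 38 and 7 cells in mice 1, 2 and 3. Tgfb1 rose in preadipocytes by a log2 fold change of 0.92 (SE 0.12, adjusted p = 2.74e-05), and by 0.87 (adjusted p = 1.07e-04) after removal of cells with a UMI of another cell type. In regulatory cells the rise of 0.51 (SE 0.18, adjusted p = 0.0364) was no longer called after that removal (0.56, adjusted p = 0.0956), with cells thinned, without the mouse in the model, or without mouse 2 or 3. Tgfb3, the remaining isoform, was at 22.4, 19.7 and 18.5 CPM in progenitors, 18.3, 15.8 and 20 CPM in preadipocytes and 29.5, 20.6 and 19.1 CPM in regulatory cells, and no difference passed the test.

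Gdf10, also called BMP3B, was the ligand that set the regulatory gate apart. Gdf10 (ENSMUSG00000021943, chromosome 14, 33923587 to 33937983) was at 885, 1007 and 712 CPM in regulatory cells, at 128, 195 and 147 CPM in preadipocytes and at 73.1, 105 and 58.2 CPM in progenitors of mice 1, 2 and 3. The ranges did not overlap, and within each gate mouse 2 was the highest. The log2 fold change was 3.48 (SE 0.12, adjusted p = 5.91e-10) against progenitors and 2.53 (SE 0.11, adjusted p = 2.50e-08) against preadipocytes, and preadipocytes exceeded progenitors by 0.96 (SE 0.11, adjusted p = 8.21e-06). The regulatory gate held 2.08%, 5.99% and 2.66% of the kept cells of mice 1, 2 and 3 and 10.5%, 21.1% and 11.6% of their Gdf10 UMIs. Cells that met no gate were 23.0%, 21.0% and 23.2% of the kept cells and held 35.3%, 28.0% and 38.0% of these UMIs. Gdf10 was thus not confined to the regulatory gate. With each cell thinned to 3000 UMIs, 80% to 89.8% of regulatory cells had a Gdf10 UMI, against 25.4% to 34.1% of preadipocytes and 12.9% to 21.2% of progenitors. At full depth these shares were 83.4% to 97.4%, 44.8% to 64.1% and 23.1% to 45%. Among the 34 thinned cells with endothelial markers the share was 11.8%.

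Gdf15, which encodes a stress-induced ligand that acts on a brainstem receptor to lower food intake, was highest in the preadipocyte gate. It was at 28.4, 24.4 and 60.2 CPM there, against 4.05, 3.05 and 3.16 CPM in progenitors and 4.21, 4.6 and 13.9 CPM in regulatory cells. Every preadipocyte sum lay above every sum of the other gates, and mouse 3 stood above mice 1 and 2 in preadipocytes and regulatory cells. Gdf15 rose by a log2 fold change of 3.32 (SE 0.23, adjusted p = 9.82e-08) from progenitors to preadipocytes and differed by -2.23 (SE 0.36, adjusted p = 6.11e-04) in regulatory cells against preadipocytes. Between regulatory cells and progenitors the log2 fold change was 1.09 (SE 0.45, adjusted p = 0.0719). Genes of the dissociation response had higher summed levels in the preadipocyte and regulatory gates than in the progenitor gate, at the values given above, and their part in the Gdf15 differences was not tested.

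The remaining ligands were low. Bmp4, the BMP of adipocyte commitment, was at 17.6, 29.8 and 17.1 CPM in progenitors, 6.68, 21.9 and 8.77 CPM in preadipocytes and 15.4, 19.5 and 11.4 CPM in regulatory cells. The ranges overlapped, with mouse 2 high in each gate, and within the mice it was lower in preadipocytes in 3 of 3 (log2 fold change -0.93, SE 0.16, adjusted p = 2.96e-04), a call lost only when the mouse was left out of the model. Inhba and Inhbb, which encode the activin beta subunits, were at 2.72, 1.67 and 2.67 CPM and 3.87, 2.66 and 3.13 CPM in progenitors. They fell in preadipocytes to 0.163, 1.26 and 0.663 CPM and 0.489, 0.711 and 0.295 CPM, over 35 and 26 preadipocyte UMIs in all. No p-value is given for Inhba and Inhbb, which were near the floor in preadipocytes. They could pass the count filter through gates where they were higher. In regulatory cells they were at 4.21, 2.7 and 4.65 CPM and 0.702, 0 and 4.65 CPM. Bmp5, a further BMP, ranged from 0.324 to 1.77 CPM over the gates and was higher in preadipocytes than in progenitors (log2 fold change 1.19, SE 0.42), over 25, 19 and 20 UMIs in progenitors and 11, 15 and 24 in preadipocytes of mice 1, 2 and 3. Its p-value is left out too, since it was near the floor in progenitors and could pass the count filter through the other gates. The difference was called, and that call held in 9 of the 12 alternative analyses that gave a value, which leave out the one with thinned cells and the one without cells carrying other markers. Gdf11, a ligand close to myostatin, ranged from 1.89 to 4.29 CPM, and none of its differences passed the test.

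Of the latency proteins and proteases, Bmp1 and Ltbp1 were highest in progenitors and Ltbp4 was highest in regulatory cells. Bmp1, which despite its name encodes a metalloprotease that cleaves procollagens, chordin and latent TGF-beta binding protein, was at 411, 487 and 455 CPM in progenitors, 174, 192 and 176 CPM in preadipocytes and 205, 191 and 151 CPM in regulatory cells. It fell by 1.37 and 1.32 on the log2 scale (adjusted p = 5.90e-08 and 4.66e-07). Ltbp1, which anchors latent TGF-beta in the matrix, was at 252, 206 and 261 CPM in progenitors, 122, 118 and 149.5 CPM in preadipocytes and 114, 98.2 and 123 CPM in regulatory cells, with log2 fold changes of -0.94 and -1.11 (adjusted p = 1.20e-07 and 2.49e-07). Progenitors of every mouse were above both other gates for both genes.

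Ltbp4, a latent TGF-beta binding protein that also assists elastic fibre assembly, was at 236, 265 and 236 CPM in regulatory cells, 148, 99 and 78.2 CPM in preadipocytes and 59, 66.3 and 54.2 CPM in progenitors. The regulatory range lay above the others, and mouse 1 was high among the preadipocyte sums. Ltbp4 rose by a log2 fold change of 2.04 (SE 0.14, adjusted p = 3.12e-07) from progenitors to regulatory cells and 1.27 (SE 0.15, adjusted p = 4.08e-05) from preadipocytes to regulatory cells. Ltbp2, a binding protein that does not hold TGF-beta, had 28, 15 and 24 UMIs in progenitors and 0 in regulatory cells of each mouse and was not tested.

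All 5 tested antagonists changed between preadipocytes and progenitors, 3 of them upwards, where 56.3% of all genes changed. The upward calls include that of Nog, which rests on few UMIs and turned when cells were thinned, as given below. Summed over the 6 antagonists the level was 2933 ± 323.1 CPM (SD, n = 3 mice) in progenitors, 2125 ± 267.7 CPM in preadipocytes and 2216 ± 330.3 CPM in regulatory cells, with Fstl1 as 59.6% to 84.2% of each sum. Without Fstl1 the progenitors were the lowest and not the highest, at 469.1 ± 54.7, 690.8 ± 105.5 and 878.3 ± 118.5 CPM. Fstl1, a secreted follistatin-like glycoprotein, was at 2517, 2172 and 2702 CPM in progenitors, 1432, 1229 and 1642 CPM in preadipocytes and 1582, 1198 and 1234 CPM in regulatory cells (log2 fold changes -0.84 and -0.88, adjusted p = 1.01e-05 and 1.37e-05).

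Chrdl1 (ENSMUSG00000031283, chromosome X, 143285674 to 143394262), a chordin-like antagonist of BMP4, divided all 3 gates. It was at 562, 424 and 519.7 CPM in regulatory cells, 127, 143 and 197 CPM in progenitors and 16.1, 16 and 36.6 CPM in preadipocytes. The ranges were apart in that order in each mouse. Regulatory cells exceeded preadipocytes by a log2 fold change of 4.59 (SE 0.20, adjusted p = 2.16e-08) and progenitors by 1.71 (SE 0.17, adjusted p = 5.81e-06), and preadipocytes differed from progenitors by -2.88 (SE 0.19, adjusted p = 5.38e-08). At 3000 UMIs per cell, 62.3% to 70.8% of regulatory cells, 26.8% to 37.8% of progenitors and 3.7% to 7.14% of preadipocytes had a Chrdl1 UMI. At full depth the shares were 74.3% to 82.3%, 44% to 58.2% and 6.89% to 12.1%. The share was 17.6% in the 34 thinned cells with endothelial markers, and how much of the low share in the preadipocyte gate was free RNA was not tested.

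Fst, which encodes follistatin, the antagonist of activins, was highest in preadipocytes. Fst (ENSMUSG00000021765, chromosome 13, 114452290 to 114458951) was at 781, 570.4 and 637 CPM in preadipocytes, 342, 268 and 324 CPM in progenitors and 431, 340.0 and 296 CPM in regulatory cells. Preadipocytes of every mouse were above both other gates, and the ranges of progenitors and regulatory cells overlapped. Preadipocytes differed by a log2 fold change of 1.03 (SE 0.09, adjusted p = 6.03e-07) against progenitors and, for regulatory cells against preadipocytes, -0.84 (SE 0.09, adjusted p = 2.42e-05). Regulatory cells and progenitors differed by 0.19 (SE 0.09, adjusted p = 0.121).

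Nog and Fstl3 were low, with their highest CPM in the regulatory gate. Nog, which encodes the BMP antagonist noggin, had 6, 15 and 8 UMIs in the regulatory cells of mice 1, 2 and 3, or 4.21, 4.06 and 4.13 CPM. In preadipocytes it had 2, 6 and 10 UMIs, and in the far larger progenitor gate 2, 0 and 7 UMIs. Over the mice, the regulatory CPM was 11.5 times that of preadipocytes (95% exact interval 6.16 to 21.9, counting error only). No p-value is given for Nog, which was near the floor in the other gates. It could pass the count filter through the regulatory gate alone. The rise from progenitors to preadipocytes rests on those few UMIs and turned to a log2 fold change of -0.41 when cells were thinned. A Nog UMI was seen in 1.36% to 1.46% of thinned regulatory cells (1.73% to 2.86% at full depth), and in 0 of the 34 cells with endothelial markers, which allows a share of up to 8.82% there. Fstl3, a follistatin-like activin antagonist, was at 14, 16.8 and 18.6 CPM in regulatory cells, 4.07, 4.92 and 5.16 CPM in preadipocytes and 1.86, 2.37 and 1.62 CPM in progenitors, with no overlap, and log2 fold changes of 3.07 and 1.84 for regulatory cells (adjusted p = 1.72e-07 and 2.58e-05). Grem1, which encodes the antagonist gremlin 1, had 16 UMIs in progenitors, 15 of them in mouse 3, and 1 UMI in preadipocytes. Most of its UMIs, 41 of 58 in kept cells, were in cells that met no gate.

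**Figure D2:**
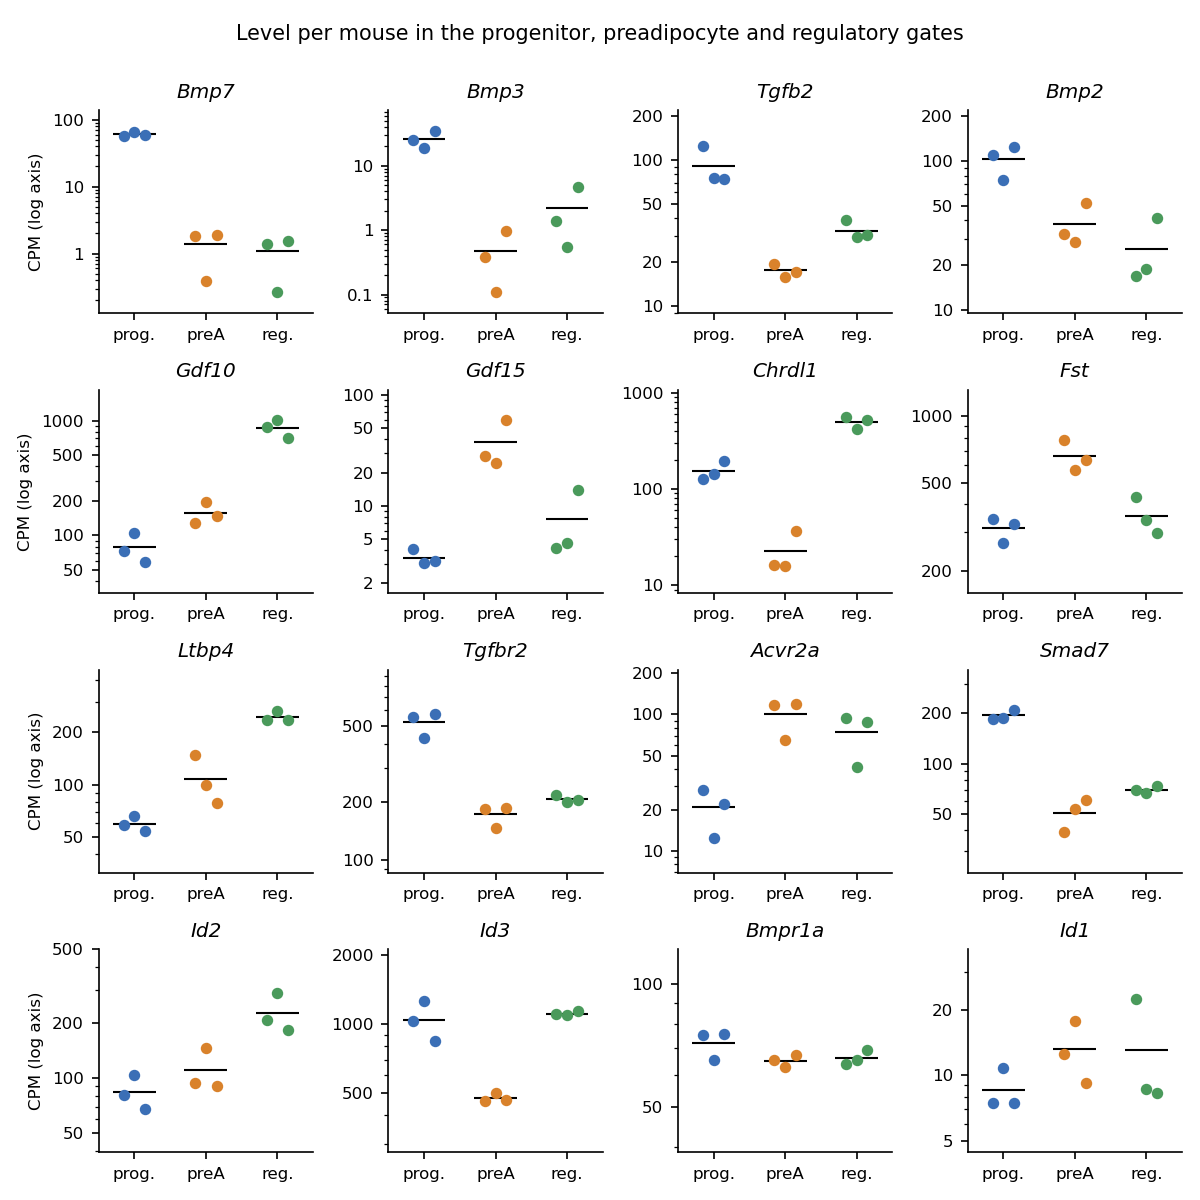
CPM on log axes in the progenitor (prog.), preadipocyte (preA) and regulatory (reg.) gates, with 1 point for each of the 3 mice, in order from left to right, and a line at their mean, for 16 members chosen to show each role. Bmp7 and Bmp3 drop outside the progenitor gate, Gdf10, Chrdl1, Ltbp4 and Id2 are highest in the regulatory gate and Gdf15 and Fst in the preadipocyte gate, while Bmpr1a lies between 62.7 and 75.3 CPM in each sum.

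Most receptors were higher in progenitors than in preadipocytes, whereas Acvr2a was lower. Summed over the 9 receptors, the level was 1523 ± 221.3 CPM (SD, n = 3 mice) in progenitors, 767.3 ± 122.1 CPM in preadipocytes and 927.7 ± 90.9 CPM in regulatory cells. Of the 9, 7 were lower and 1 higher in preadipocytes than in progenitors, where 56.3% of all genes were called in either direction. In regulatory cells 4 were lower and 1 higher than in progenitors, where 43.0% of all genes were called, so the latter count was near the background. Tgfbr2, the type II receptor that binds TGF-beta, was at 557, 431 and 571 CPM in progenitors, 183, 147 and 187 CPM in preadipocytes and 218, 199 and 205 CPM in regulatory cells. Its log2 fold change was -1.64 (SE 0.07, adjusted p = 1.53e-09) in preadipocytes and -1.31 (SE 0.08, adjusted p = 5.73e-08) in regulatory cells. At 3000 UMIs per cell 69.7% to 78.3% of progenitors, 32.1% to 42.5% of preadipocytes and 39.2% to 43.7% of regulatory cells had a UMI of it (at full depth 92.2% to 96%, 67.8% to 78.7% and 54.7% to 72.9%). The share was 58.8% in the 34 cells with endothelial markers, a cell type known to express this receptor.

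The type I receptor and the co-receptor of TGF-beta shared that direction. Tgfbr1, the type I receptor, was at 60.7, 46.8 and 63.4 CPM in progenitors, 29, 24.8 and 33.3 CPM in preadipocytes and 21.8, 13.3 and 24.8 CPM in regulatory cells. Its log2 fold changes against progenitors were -1.03 and -1.58 (adjusted p = 1.16e-07 and 4.34e-07). Tgfbr3, or betaglycan, a co-receptor that presents TGF-beta2, was at 617, 449.6 and 574 CPM in progenitors, 209, 144 and 228 CPM in preadipocytes and 379.8, 283 and 325 CPM in regulatory cells. For Tgfbr3, whose exons overlap those of Gm43422 on the same strand so that reads could be split between them, the log2 fold changes were -1.56 and -0.73 (adjusted p = 6.70e-09 and 1.77e-05). Progenitors of every mouse lay above every other sum for Tgfbr1, Tgfbr2 and Tgfbr3.

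Acvr2a (ENSMUSG00000052155, chromosome 2, 48814109 to 48903269), a type II receptor for activins and several BMPs and GDFs, was the opposite. It was at 28.1, 12.5 and 22.1 CPM in progenitors, 117, 65.1 and 119 CPM in preadipocytes and 94.1, 41.1 and 87.3 CPM in regulatory cells. Mouse 2 was the lowest in each gate, and even its preadipocyte and regulatory values were above all progenitor values. Acvr2a rose by a log2 fold change of 2.23 (SE 0.08, adjusted p = 4.12e-10) in preadipocytes and 1.81 (SE 0.11, adjusted p = 6.08e-08) in regulatory cells, which were below preadipocytes within each mouse (-0.42, SE 0.10, adjusted p = 0.0076). At 3000 UMIs per cell, 15.7% to 28.8% of preadipocytes, 9.94% to 22% of regulatory cells and 3.83% to 7.73% of progenitors had an Acvr2a UMI, and at full depth 50.2% to 53.2%, 26% to 30.7% and 12.5% to 16.5%. The share was 8.82% (3 of 34) in the cells with endothelial markers.

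Of the receptors best known for BMPs, Bmpr2 fell outside the progenitor gate and Acvr1 passed no test. Bmpr1a, a type I BMP receptor, was at 75.2, 65.1 and 75.3 CPM in progenitors, 65.2, 62.7 and 67.1 CPM in preadipocytes and 63.9, 65.2 and 69.2 CPM in regulatory cells. The ranges overlapped, and the difference of preadipocytes, called at a log2 fold change of -0.20 (SE 0.06, adjusted p = 0.0131), was lost in 5 of 14 alternative analyses. Bmpr2, the type II BMP receptor, fell by 0.80 and 0.74 on the log2 scale in preadipocytes and regulatory cells (adjusted p = 7.48e-07 and 1.15e-05) from 205, 117 and 199.9 CPM in progenitors. Acvr1, a type I receptor for BMPs, ranged from 21.8 to 25.5 CPM over all 9 sums, with log2 fold changes between -0.12 and 0.09 (SE 0.06 to 0.10) that did not pass the test. Acvrl1, a type I receptor best known from endothelium, ranged from 64.9 to 90.6 CPM and was lower in preadipocytes than in progenitors (-0.25, SE 0.06, adjusted p = 0.00258). Bambi, a pseudoreceptor without a kinase that dampens the pathway, was low in preadipocytes only, at 9.56, 12.4 and 11.1 CPM against 23.9, 36.2 and 26.3 CPM in progenitors and 21.1, 30 and 26.3 CPM in regulatory cells (log2 fold change -1.43, SE 0.08, adjusted p = 1.35e-08 against progenitors).

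Of the 6 SMADs and target genes, 3 fell and 2 rose from progenitors to preadipocytes, and 2 fell and 1 rose from progenitors to regulatory cells. With 56.3% and 43.0% of all genes called, the second count was near the background. Smad7, the inhibitory SMAD induced by TGF-beta, was at 186, 187 and 210.3 CPM in progenitors, 38.7, 53.5 and 60.6 CPM in preadipocytes and 69.5, 66.8 and 73.4 CPM in regulatory cells. None of the ranges overlapped. The log2 fold change was -2.00 (SE 0.10, adjusted p = 3.54e-09) in preadipocytes and -1.50 (SE 0.11, adjusted p = 5.38e-07) in regulatory cells against progenitors. Smad6, the inhibitory SMAD linked to BMP signalling, was at 7.68, 9.75 and 8.63 CPM, 4.67, 5.63 and 3.54 CPM and 7.72, 13.8 and 12.9 CPM in the same order of gates. It was lower in preadipocytes than in progenitors (log2 fold change -0.96, SE 0.14, adjusted p = 1.08e-04) and than in regulatory cells (1.38, SE 0.21, adjusted p = 4.41e-04 for regulatory cells over preadipocytes). Smad3, a mediator of TGF-beta and activin signals, lay between 13.9 and 28.2 CPM and was lower in regulatory cells than in progenitors (-0.37, SE 0.12, adjusted p = 0.0285), a call lost in 6 of 14 alternative analyses.

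Id2 and Id3, which encode inhibitors of basic helix-loop-helix transcription factors, were both high in the regulatory gate, but only Id3 was also high in progenitors. Id3 was at 1103, 1092 and 1138 CPM in regulatory cells, 1035, 1265 and 844 CPM in progenitors and 462, 499 and 464 CPM in preadipocytes. The regulatory and progenitor ranges overlapped, and both were above all preadipocyte values. The log2 fold change was 1.28 (SE 0.10, adjusted p = 1.76e-06) for regulatory cells over preadipocytes and -1.18 (SE 0.10, adjusted p = 6.31e-07) for preadipocytes against progenitors. Id2 was at 206, 291 and 183 CPM in regulatory cells, 94.2, 146 and 90.9 CPM in preadipocytes and 80.9, 104 and 67.8 CPM in progenitors, so the preadipocyte and progenitor ranges overlapped. It rose from progenitors to regulatory cells by 1.42 (SE 0.07, adjusted p = 1.88e-08) and from preadipocytes to regulatory cells by 1.09 (SE 0.07, adjusted p = 4.36e-07).

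Id1, the BMP target most used as a readout, was low in every gate, at 7.49, 10.8 and 7.5 CPM in progenitors, 12.6, 17.8 and 9.28 CPM in preadipocytes and 22.5, 8.65 and 8.27 CPM in regulatory cells. The ranges overlapped, and the difference between preadipocytes and progenitors was small (log2 fold change 0.55, adjusted p = 0.0426), with 0.52 (adjusted p = 0.00795) without cells carrying other markers. The call was lost in 4 of 14 alternative analyses, namely with DESeq2 (adjusted p = 0.148), without the mouse in the model (0.221) and without mouse 2 (0.073) or mouse 3 (0.064). In the 84 cells with 5 or more UMIs of endothelial markers Id1 was at 184, 477 and 252 CPM in mice 1, 2 and 3.

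**Figure D3:**
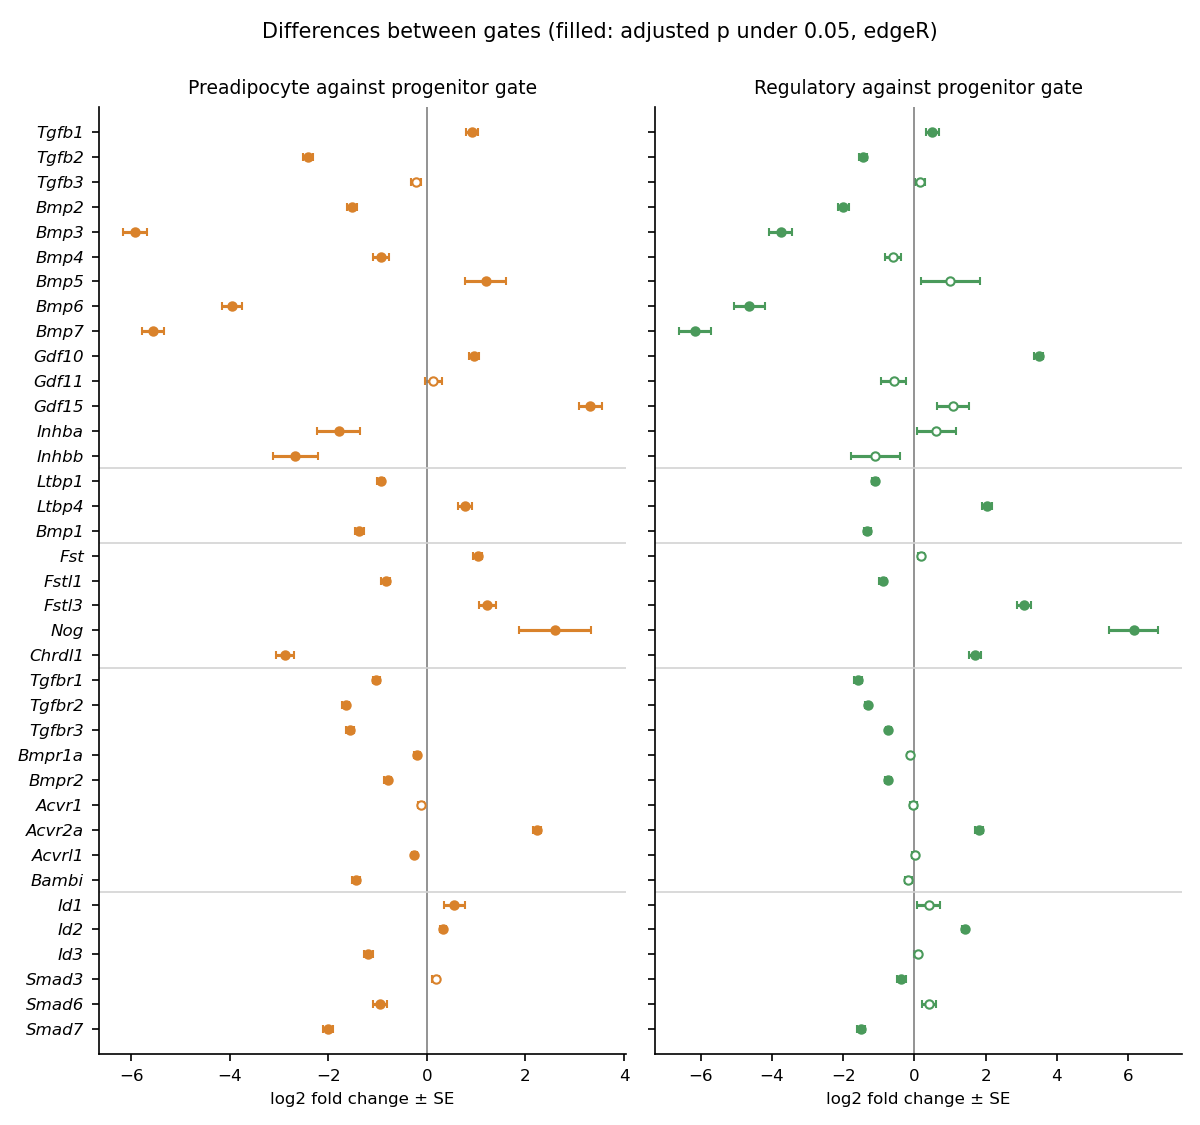
Log2 fold change with its SE of the 37 tested members, in rows by role, for the preadipocyte (left) and regulatory (right) gate against the progenitor gate. Filled points passed an adjusted p of 0.05, and the lowest points are Bmp3 at -5.93 on the left and Bmp7 at -6.16 on the right. The latter rests on 6 regulatory UMIs. Bmp3, Bmp5, Bmp6, Bmp7, Inhba, Inhbb and Nog could pass the count filter through gates where they were higher. Their fill is not read as a result.

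**Figure D4:**
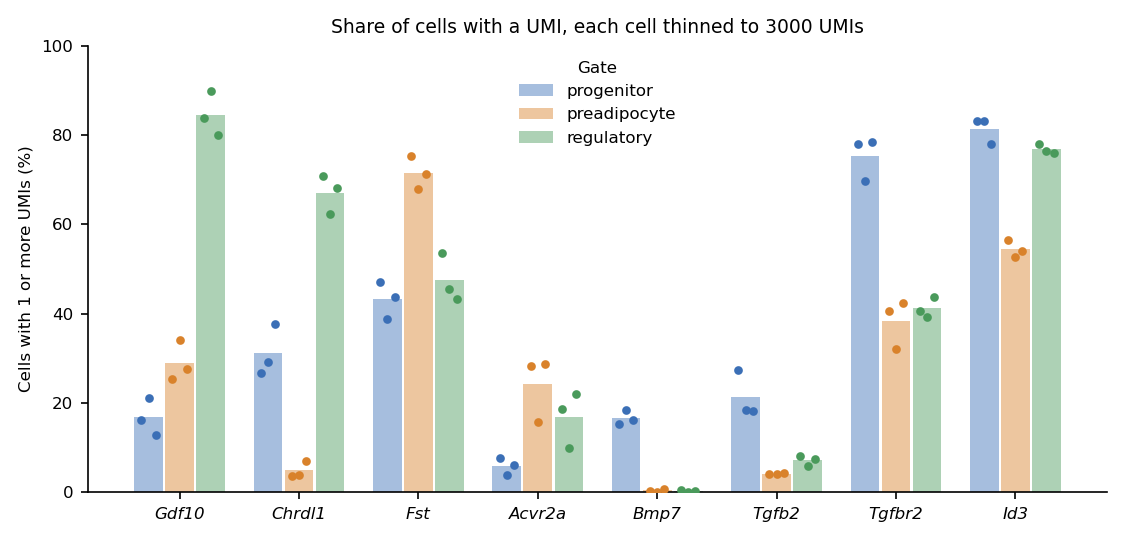
Share of cells with 1 or more UMIs of 8 members in each gate, after each cell was thinned to 3000 UMIs and cells with fewer were left out. Bars give the mean of 3 mice and points stand for the mice, with Gdf10 at 80% to 89.8% of regulatory cells and Bmp7 at 15.3% to 18.5% of progenitors and under 1% of the other gates.

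A wider list of the pathway, 102 further genes, was used to see how the rest of the machinery was placed. Like the members, it was chosen with earlier results of these data known. Of its genes, 70 could be tested, and the other 32, among them 14 of the 19 further ligands, were too low. Between preadipocytes and progenitors 17 were higher and 35 lower, between regulatory cells and progenitors 15 and 30, and between regulatory cells and preadipocytes 21 and 14. Of all genes tested, 27.2% were higher and 29.2% lower in the first comparison, 19% and 24% in the second and 12.3% and 13.4% in the third. The median log2 differences of these genes were -0.38, -0.26 and 0.01, beside the medians of all genes given above. In the first comparison the 20 signalling components gave 14 lower and 4 higher, and the 15 tested targets 5 lower and 6 higher.

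The wider genes that moved most included some highest in each of the gates. Pcsk6, a proprotein convertase that cleaves precursors of this family, was at 336, 309 and 348 CPM in progenitors, 21.6, 23.8 and 34.9 CPM in preadipocytes and 15.4, 12.7 and 14.5 CPM in regulatory cells. Crim1, a transmembrane BMP antagonist, and Smurf2, a ubiquitin ligase that removes receptors and SMADs, were also highest in progenitors, with log2 fold changes of -2.33 and -2.02 in preadipocytes (adjusted p = 3.52e-10 and 3.46e-10). Id4, the remaining Id gene, was at 33.7, 33.5 and 38.2 CPM in regulatory cells and between 6.19 and 10.1 CPM in the other sums. Regulatory cells thus exceeded both other gates in each mouse for Id4 (log2 fold change 2.07, SE 0.17, adjusted p = 8.76e-07 against progenitors).

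On the preadipocyte side, Thbs1, which encodes thrombospondin 1, an activator of latent TGF-beta, was at 174, 235 and 253 CPM in preadipocytes against 11.5, 8.13 and 13.7 CPM in progenitors and 35.8, 43.8 and 79.6 CPM in regulatory cells. Preadipocytes were apart from progenitors in all 3 mice, with a log2 fold change of 4.25 (SE 0.16, adjusted p = 4.42e-10). Bmper, a BMP-binding regulator, rose by 2.73 in preadipocytes, and Bgn, the matrix proteoglycan biglycan, by 3.20 in preadipocytes and 3.59 in regulatory cells (adjusted p = 1.07e-09, 4.13e-10 and 6.42e-10). Postn, a matrix protein induced by TGF-beta, was at 141, 93.9 and 89.9 CPM in regulatory cells and 408.6 to 1377 CPM in the other gates, and it fell in regulatory cells against progenitors (-2.95, SE 0.28, adjusted p = 3.73e-06).

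Within the preadipocyte gate, cells with 2 or more UMIs of Cd44 (930 cells) were compared with cells without a Cd44 UMI (3470 cells). The study divides ICAM1-positive cells by CD44, first by clustering of the single-cell RNA data with several markers and then by sorting on the surface protein. It calls those high in CD44 pro-preadipocytes and those low in CD44 preadipocytes. The split here is by Cd44 UMIs alone and not by clusters or protein, in a gate that cells can enter on Fabp4 alone. The sets of cells are therefore not the same. The comparison rests on 6 sums with 2 residual degrees of freedom. Of 31 members tested, 16 changed. There were 13 higher in the cells with Cd44, where 12.2% of all genes were, and 3 lower, where 5.86% were. Only 3 members changed at least 2-fold, against 2.51% of all genes, namely Chrdl1, Tgfb2 and Id1, and the median log2 difference of the members was 0.13 against 0.01 for all genes. With cells thinned to 3000 UMIs, 2 members were called, and without the mouse in the model 0 were called by edgeR, with 5 at an unadjusted p under 0.05, whereas DESeq2 with the mouse as a term called 13. Calls over all genes fell in each of these settings too, as given in the last section. Without the mouse, edgeR called 0 of 11280 genes, with 1207 at an unadjusted p under 0.05. The loss of calls was therefore not particular to the members.

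Chrdl1 and Tgfb2 had the largest called increases with Cd44 among the members. The signal of Chrdl1 in this gate was low, and the part of free RNA in it was not tested. Chrdl1 was at 17.8, 28.7 and 66.2 CPM in cells with Cd44 and 12.9, 10.1 and 27.8 CPM in cells without it. The 2 ranges overlapped, with mouse 3 high in both, and the rise was seen within each mouse (log2 fold change 1.23, SE 0.16, adjusted p = 2.58e-04). Tgfb2 was at 35.6, 22.4 and 25.9 CPM and 15.5, 13.2 and 14.3 CPM, without overlap (1.04, SE 0.13, adjusted p = 1.75e-04), and Smad7, the inhibitory SMAD, at 49.7, 61.2 and 73.5 CPM and 35, 46.6 and 57.7 CPM (0.51, SE 0.08, adjusted p = 0.00103). With cells thinned to 3000 UMIs and Cd44 at 1 UMI or more against 0, Tgfb2 was at a log2 fold change of -0.12 (adjusted p = 0.931), Smad7 at -0.10 (adjusted p = 0.897) and Chrdl1 at 0.50 (adjusted p = 0.447). Depth and the Cd44 limit changed together in that analysis, and their parts cannot be told apart. The cells with Cd44 were also the deeper ones, with median UMIs of 8861.5, 13729 and 7578.5 against 7863, 12606.5 and 7118 in mice 1, 2 and 3. All 5 progenitor markers were higher with Cd44, with summed levels of 181.9 to 374.7 CPM against 146.3 to 272.4 CPM, and their part in these differences was not tested.

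Other members differed by less. Gdf10, Fstl1, Id3, Tgfbr2, Tgfbr3 and Bmpr2 were higher with Cd44 by log2 fold changes of 0.47, 0.49, 0.54, 0.37, 0.32 and 0.37. Gdf15 and Id2 were lower, at -0.68 and -0.45 (adjusted p = 0.00228 and 0.00343). Fst, the antagonist highest in preadipocytes, was at 648, 511 and 634 CPM with and 832, 609 and 636 CPM without Cd44 and did not pass the test (-0.11, SE 0.07, adjusted p = 0.287). Tgfb1, Bmp4 and Bmpr1a did not either, with adjusted p of 0.741, 0.162 and 0.489.

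Id1 was lower with Cd44, at 7.05, 7.16 and 6.46 CPM against 13.8, 20.4 and 10.1 CPM (log2 fold change -1.05, SE 0.19, adjusted p = 0.00298). Endothelial markers summed to 0 to 2.82 CPM in the cells with Cd44 and to 49.9, 102.2 and 7.46 CPM in the cells without it. Levels of Id1 in cells with endothelial markers are given above. The part of endothelial cells in the Id1 difference was not tested, and the removal that follows does not tell cell types apart. After removal of cells with a UMI of another cell type's marker, the Id1 difference was -0.31 (adjusted p = 0.595), that of Gdf15 -0.35 (adjusted p = 0.319) and that of Gdf10 0.24 (adjusted p = 0.089). Chrdl1, Tgfb2, Bmp2, Ltbp4, Fstl1, Tgfbr3, Bmpr2, Id2, Id3 and Smad7, 10 members in all, were still called, with Chrdl1 at 1.03, Tgfb2 at 1.22 and Smad7 at 0.68. Genes of the dissociation response summed to 19582 to 23639 CPM in cells with Cd44 and 24525 to 29458 CPM in cells without it. Of the wider list 62 genes could be tested in this comparison, and 18 were higher and 4 lower with Cd44, where 12.2% and 5.86% of all genes were. With cells thinned 7 of the wider genes were called, and without the mouse in the model edgeR called 0, with 15 at an unadjusted p under 0.05, and DESeq2 with the mouse as a term 11. Calls over all genes fell in these settings as well.

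**Figure D5:**
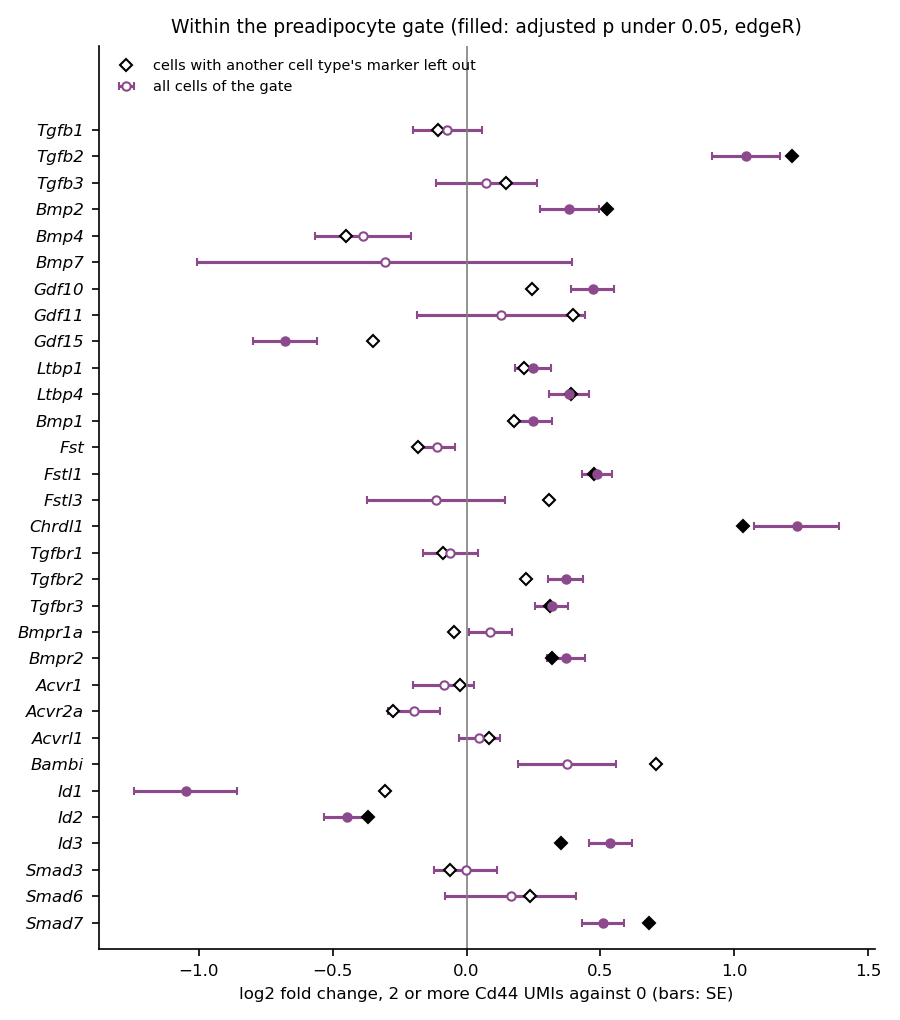
Log2 fold change of the 31 tested members between preadipocyte-gate cells with 2 or more and with 0 Cd44 UMIs. Circles with SE bars use all cells of the gate, diamonds leave out cells with a UMI of another cell type's marker, and filled symbols passed an adjusted p of 0.05. Id1 moves from -1.05 to -0.31 between them, while Chrdl1 and Tgfb2 stay above 1.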

How the data were processed

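The authors deposited unnormalized UMI counts of every gene in every barcode, for which Cell Ranger and the mm10 build were used. The submitters' processing notes name version 2.1.1 and the file headers 4.0.0. CPM is the count of a gene divided by the summed UMIs of the mouse and gate. The libraries held 13698, 6872 and 16220 barcodes. Doublets were not called, cells meeting more than 1 gate were left out, and an alternative left out the 5% of cells with the most UMIs. Intervals are exact at 95% and, like limits for 0 counts (3 counts), cover counting error only.

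Sums per mouse and gate (9 sums, 4 residual degrees of freedom) were tested with edgeR 4.0.16 in R 4.3.3 (filterByExpr, TMM, quasi-likelihood) with the mouse as a block, since the gates of 1 mouse share an animal. Deviations of the same mouse from the gate means correlated at r = 0.154 to 0.678 over 13258 genes. P-values were adjusted by Benjamini-Hochberg over all genes tested, and SE was derived from the log2 fold change and F. Gate genes, and Cd44 in its comparison, counted towards library sizes and were not tested. On simulated counts with 200 genes changed 2-fold, 200 were recovered with 7 false calls between preadipocytes and progenitors (13062 genes), and 189 with 6 false calls for Cd44 (11386 genes). Far more genes were called in the data, 7469 and 2039, so the simulated share of false calls does not carry over to them. Low-count genes, cell filters, gates, depth, normalization, the test (DESeq2 1.42.0), the block and left-out mice were varied in 14 alternatives.

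Members and lists were chosen with earlier results of these data known. Members called in any comparison at an absolute log2 fold change of 1 or more, with 1 sign in the 3 mice and with 20 CPM or more on average in some gate were given in full, as were Tgfb1, Tgfbr2, Bmp4, Bmpr1a, Fst, Id1 and Smad7. The other members given with values per mouse, among them Bmp6, Nog and Fstl3, were chosen after their values were seen. Of the wider genes, the 10 with the largest change under that rule were taken, some of which are not reported here, and 102 of 103 names matched the files. Coordinates are those of GENCODE M21 (GRCm38), in which 32158 of 32285 gene identifiers were found. Exons of Tgfb2, Tgfb3, Bmp4, Bmp5, Bmp6, Ltbp2, Fst, Fstl3, Bmpr1a, Acvr2a and Acvrl1 overlap a gene on the other strand, and whether counting used strand is not given in the sources used here. Python 3.11.15 with scipy 1.17.1 was used for sums, intervals and figures.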

Additional observations from a re-analysis of the deposited data

How the results depend on the processing

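Of the calls in the gates, 25 of 33 between preadipocytes and progenitors, 20 of 22 between regulatory cells and progenitors and 12 of 21 between regulatory cells and preadipocytes held in all 14 alternatives, as did 0 of the 16 calls for Cd44. With no replicate block for the mouse, the members called were 27, 20 and 15 in those comparisons, and the wider genes called were 33 in place of 52 between preadipocytes and progenitors and 22 in place of 35 between regulatory cells and preadipocytes. For Cd44, edgeR without the block called 0 members and 0 wider genes (5 and 15 at an unadjusted p under 0.05), while DESeq2 with the mouse as a term called 13 and 11. Cells thinned to 3000 UMIs left 2 members and 7 wider genes for Cd44, with Tgfb2 at -0.12 and Smad7 at -0.10, and leaving out cells with a UMI of another cell type's marker left 10 and 14. Leaving out 1 mouse each gave 30 to 32, 20 to 23, 18 to 22 and 12 to 16 members in the 4 comparisons, and 44 to 51, 37 to 43, 24 to 30 and 13 to 20 wider genes, with the lowest Cd44 value, 13, without replicate 2. For the gates, no share over all genes is given beside the calls held in all alternatives or the counts with 1 mouse left out. Those are not set against a background. Over all genes, the calls without the block were 3992, 3128, 1530 and 0 in place of 7469, 5695, 3411 and 2039 (1207 at an unadjusted p under 0.05 for Cd44). Other settings gave 754 (DESeq2), 246 (thinned), 1207 (other markers left out), 1097 (without replicate 2) and 1230 (without replicate 3) for Cd44. With library sizes in place of TMM, 71.4% of the Cd44 member calls were higher in place of 81.2%. The causes of these changes were not tested. The regulatory gate was the shallowest, at 1424350 to 3697369 UMIs a mouse, which limits Bmp3, Bmp6, Bmp7 and Nog there.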
